A study of Homo sapiens with 9 samples.

Results

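The 60 genes described here encode proteins of the G2 phase and of mitosis: the cyclin B and CDK1 kinase and its activators, the kinetochore, the kinesin motors, the spindle, the cyclosome and their transcription factors. They were taken by name from a list and kept where a gene had at least 10 counts in at least 3 of 9 libraries. All 60 names were found in the table of 37351 genes and all 60 passed, beside 19408 genes of the whole table that passed the same rule. The count rule used no difference between times, but the names were chosen with earlier results of these data known. Shares of the 60 genes called are therefore set beside those of all genes as description only. The cells were LNCaP, a line derived from a metastatic human prostate carcinoma and driven by the androgen receptor. Every library came from cells plated in triplicate in multiwell plates and starved in medium without serum or calcium. Recombinant NRG1, a ligand of the receptor HER3, was then given at 15 ng/mL. RNA was taken at 0, 12 and 24 h, with 3 biological replicates at each time. The 0 h cells carry the same treatment label with no time in NRG1. No cells kept for 12 or 24 h without NRG1 were analysed here, so NRG1 and the time spent in serum-free medium cannot be told apart.

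Genes of G2 and mitosis are transcribed late in the cell cycle. In resting cells and in G1 they are held down by the DREAM complex, which reads an element called the cell cycle genes homology region (CHR) near the start site, and in G2 the MuvB core of DREAM joins MYBL2 and FOXM1 to switch them on, while NF-Y acts through a nearby CCAAT box. Genes of DNA replication are switched on earlier, by E2F. The RNA of the late genes therefore tracks how many cells of a culture are in G2 or mitosis, but in bulk RNA fewer cells in these phases and less RNA per cell cannot be told apart.

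The promoters of these genes show the shared element. RefSeq promoter sequences (GRCh38.p14, 250 bases before to 50 bases after each start) matched 51 of the 60 genes by symbol, with 63 promoters, and BUB3, UBE2C, TPX2, TROAP, FOXM1, RACGAP1, AURKA, BIRC5 and TTK had no entry. The letters TTTGAA or TTCGAA, 2 forms of the CHR, were searched on both strands (TTCGAA reads the same on both), and other spellings were not searched. They stood in 42 of the 63 promoters, or 66.7%, against 16.4% of all 35116 promoters of the table. CCAAT, also on either strand, stood in 46, or 73.0%, against 34.6% of all promoters. Counted per gene, 32 of 51 genes (62.7%) had a CHR match lying wholly within 40 bases of a start site, against 5.01% of 27305 genes. Of the 30 S phase genes with a promoter, 3 (10%) held CHR letters and 20 (66.7%) held CCAAT. Over the 27305 genes these shares were 19.5% and 39.7%.

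The 4 sequences shown first are those of the genes with CHR letters that fell most between 12 and 24 h, each from 120 bases before the start to 30 bases after it. Capitals mark CHR and CCAAT letters on either strand (ATTGG is CCAAT on the other strand, TTCAAA is TTTGAA). The windows are chr5:163460512-163460661 on the plus strand for HMMR, chrX:70289984-70290133 on the plus strand for KIF4A, chr14:55191556-55191705 on the minus strand for DLGAP5 and chr2:110678034-110678183 on the minus strand for BUB1.
HMMR: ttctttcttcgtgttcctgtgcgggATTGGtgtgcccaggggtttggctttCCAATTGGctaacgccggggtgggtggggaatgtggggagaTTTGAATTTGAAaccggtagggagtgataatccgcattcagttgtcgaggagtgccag
KIF4A: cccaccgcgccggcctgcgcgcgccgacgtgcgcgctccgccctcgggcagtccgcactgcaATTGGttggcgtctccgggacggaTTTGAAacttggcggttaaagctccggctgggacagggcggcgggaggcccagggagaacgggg
DLGAP5: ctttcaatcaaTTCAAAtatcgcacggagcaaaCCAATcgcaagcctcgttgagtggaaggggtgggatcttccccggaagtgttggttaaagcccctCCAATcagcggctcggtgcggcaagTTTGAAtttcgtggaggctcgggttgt
BUB1: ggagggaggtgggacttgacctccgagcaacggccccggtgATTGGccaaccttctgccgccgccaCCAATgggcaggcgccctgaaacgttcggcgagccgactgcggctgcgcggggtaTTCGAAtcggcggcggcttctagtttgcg

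In HMMR, 2 copies of the CHR stood side by side, and their first bases lay 28 and 22 bases before the start. KIF4A had 1 copy 34 bases before the start. In DLGAP5 the copy nearest the start began 3 bases after it, and in BUB1 the form TTCGAA began 1 base after it. Each of the 4 windows also held a CCAAT box upstream of its nearest CHR. PTTG1 fell more than any other gene and NUSAP1 had the highest value of 24 h against 12 h, so their promoters are shown for contrast, at chr5:160421735-160421884 and chr15:41332761-41332910, both on the plus strand. PTTG1 has a further start site in the table, which is not shown.
PTTG1: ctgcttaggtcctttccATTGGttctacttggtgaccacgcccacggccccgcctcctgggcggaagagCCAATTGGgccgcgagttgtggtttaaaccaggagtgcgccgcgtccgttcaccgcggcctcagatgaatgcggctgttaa
NUSAP1: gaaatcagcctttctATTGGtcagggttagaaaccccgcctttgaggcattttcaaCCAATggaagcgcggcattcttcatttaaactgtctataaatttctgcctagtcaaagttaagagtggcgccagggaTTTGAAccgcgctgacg

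PTTG1 had CCAAT letters but no CHR letters in either of its windows, whereas NUSAP1 had a CHR 13 bases after the start. NUSAP1 had only 10 to 22 counts in a library, and its value of 24 h against 12 h did not pass (edgeR adjusted p = 0.597). The median log2 fold change of 24 h against 12 h was -0.22 over the 38 genes with CHR letters (21 of them lower), -0.24 over the 13 genes without (10 lower) and -0.27 over the 9 genes with no promoter entry (8 lower). Of all tested genes 3.05% were called lower in this comparison. The share was 8.07% of the 979 tested genes whose promoters held both CHR and CCAAT letters, the G2 and mitosis genes among them, and 3.38% of the 10131 without CHR letters. A match of letters is a description of the sequence, and binding was not measured.

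**Figure D1:**
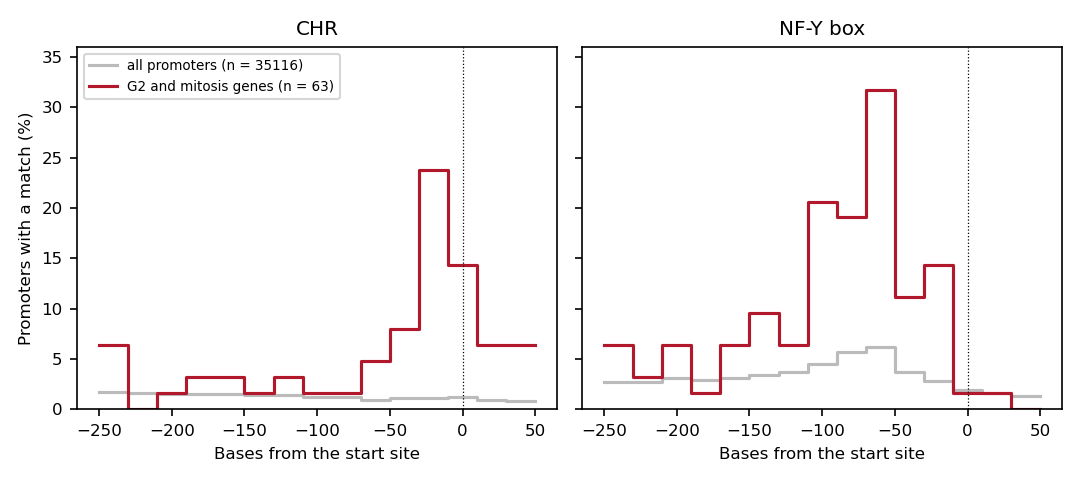
Share of promoters (y axis, %) with a CHR (left) or an NF-Y box (right) whose first base lies in each window of 20 bases, against distance from the start site (x axis, bases), for 63 promoters of G2 and mitosis genes (red) and all 35116 promoters of the table (grey). CHR matches of the red set peak in the window that opens 30 bases before the start, at 23.8% against 1.09%, and NF-Y boxes in the window that opens 70 bases before it, at 31.7% against 6.16%.

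The libraries held 47016302 to 60985825 counts each, and all 7 markers of LNCaP and luminal prostate cells exceeded 1 CPM (read counts scaled to a common library size) in every library, at 3818 to 4068 CPM in sum. The 3 basal markers summed to at most 0.323 CPM and the 3 immune markers to at most 0.432 CPM. Of the 4 stromal markers, COL1A1 alone exceeded 1 CPM in all 9 libraries, and the stromal list summed to 22.8 to 27.4 CPM. Of the endothelial list VWF exceeded 1 CPM, PECAM1 did not and CDH5 was not in the table. Its sum was highest at 0 h, at 12.95 to 13.63 CPM against 6.89 to 8.06 CPM at 24 h, and its part in the results was not tested. P-values measure the spread between the 3 replicates of each time. The methods do not state whether these were separate cultures or parallel wells of 1 culture.

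Of the 60 G2 and mitosis genes, 39 fell from 12 to 24 h and 32 fell from 0 to 24 h, and the 10 that rose at 12 h lay little above the share of all genes called higher. Together they took 0.264% ± 0.00507 (SD, n = 3) of all counts in the 0 h libraries. The share was 0.274% ± 0.00461 in the 12 h libraries and 0.237% ± 0.00258 in those of 24 h. In edgeR's quasi-likelihood test, called at an adjusted p of at most 0.05 over 19250 genes, 10 of the 60 were higher at 12 h than at 0 h and 0 were lower, where 10.6% of all tested genes were called higher and 8.16% lower. At 24 h against 0 h, 32 were lower and 0 higher, where 9.48% of all genes were called lower and 11.6% higher. Between 12 and 24 h, 39 were lower and 0 higher, where 3.05% of all genes were called lower and 3.03% higher. Both comparisons with 0 h share the same 0 h libraries. At an unadjusted p under 0.05 the counts of 0 remained 0 in edgeR and in DESeq2 alike, while 21, 34 and 49 genes passed in the called direction in edgeR.

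The median log2 fold change of the 60 genes was 0.09 for 12 h against 0 h, -0.15 for 24 h against 0 h and -0.23 from 12 to 24 h. Over all tested genes the medians were -0.01, -0.01 and 0.00. None of the 60 changes reached 1.5-fold together with the threshold on p, in edgeR or DESeq2, and none reached it at an unadjusted p under 0.05. Of all tested genes, 0.992% rose and 1.38% fell past both thresholds at 12 h, 1.53% rose and 1.78% fell past them at 24 h against 0 h, and 0.249% and 0.203% did so from 12 to 24 h. In 45 of the 60 genes the mean was highest at 12 h and lowest at 24 h, and this order was not counted over all tested genes. A difference among the 3 times was called in 44 genes by edgeR's F test, where 25.1% of all tested genes were called.

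As a set, the 60 genes were close among the libraries of each time, with 1 exception at 0 h. The median over the 60 genes of log2 CPM minus each gene's own mean was -0.05, 0.05 and 0.08 in the 0 h replicates, 0.11, 0.10 and 0.13 at 12 h, and -0.12, -0.14 and -0.11 at 24 h. All 24 h values lay below all others and all 12 h values above all others. Replicate 1 of 0 h stood below its fellows in most genes, with 17 of 60 above their own mean against 42 and 51. The 12 genes with a longest transcript over 5000 bases had a median of 0.06 in that library, and the 48 others had -0.05. Replicate 2 of 12 h also split by length. The 12 long genes had a median of 0.0068 in it, against 0.11 and 0.12 in the other 12 h libraries, and the 48 others had 0.11. CENPF and MKI67, both low in that library, are among the 12. The part of transcript length in either library was not tested. Without replicate 1 of 0 h, 3 genes were called higher at 12 h in place of 10, and without replicate 2 of 12 h, 4 were. Without replicate 3 of 0 h, 21 genes were called lower at 24 h than at 0 h in place of 32.

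**Figure D2:**
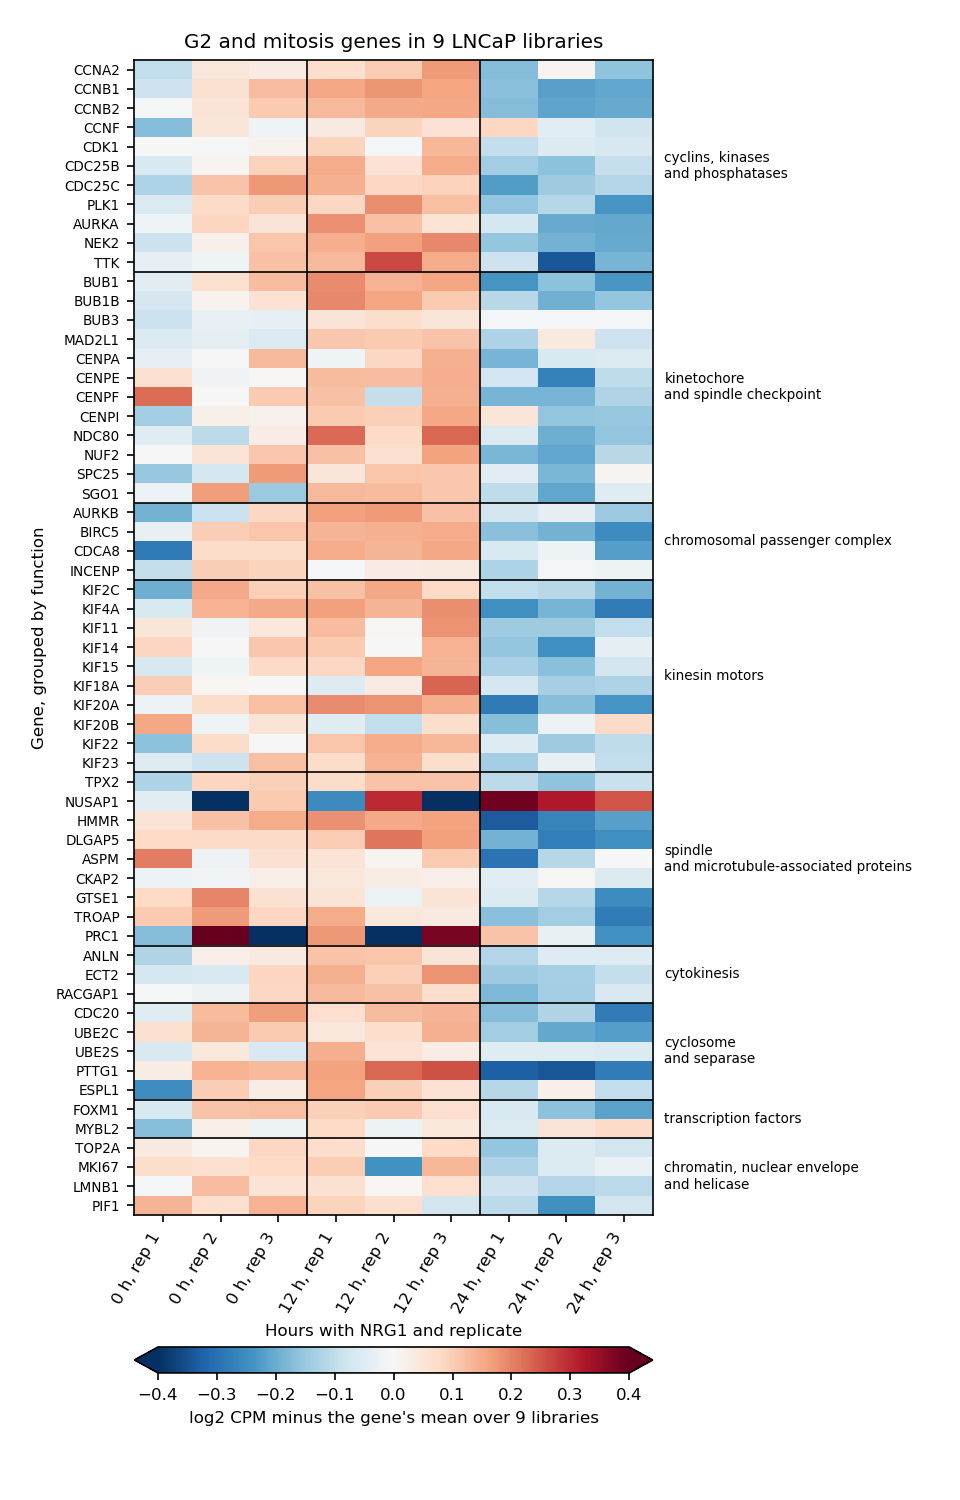
Colour gives log2 CPM minus the gene's mean over the 9 libraries, for 60 genes (rows, grouped by function) in 9 libraries (columns, hours with NRG1 and replicate), with the scale ending at 0.4 on either side. Most rows are red at 12 h and blue at 24 h, replicate 1 of 0 h is paler or bluer than the other 0 h libraries in most rows, and NUSAP1 and PRC1, with few reads, reach the ends of the scale in several libraries, NUSAP1 being red in all 3 of 24 h.

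Of the cyclins, kinases and phosphatases that drive entry into mitosis, 10 of 11 were lower at 24 h than at 12 h, 8 of 11 were lower than at 0 h and 2 of 11 were higher at 12 h than at 0 h. Coordinates of genes are those of the table (GRCh38.p13). CCNB1 (ENSG00000134057.15, chr5:69167135-69178245), the cyclin that binds CDK1 for mitotic entry, measured 101, 111 and 116 CPM at 0 h, 119, 121 and 119 CPM at 12 h and 95.05, 91.88 and 92.41 CPM at 24 h. The 12 h libraries lay above all others and the 24 h libraries below all others. CCNB1 rose by 0.13 ± 0.04 (SE) on the log2 scale at 12 h (edgeR adjusted p = 0.0188) and fell by 22.1% from 12 to 24 h (log2 fold change -0.36 ± 0.04, edgeR adjusted p = 6.32e-08). Its rise lost the call without replicate 1 of 0 h (edgeR adjusted p = 0.182), without replicate 2 of 12 h (0.0550) and with trends on GC content and length removed (0.0706).

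CCNB2, another B-type cyclin, measured 38.4, 39.9 and 41.4 CPM at 0 h, 42.1, 42.7 and 42.8 CPM at 12 h and 34.1, 33.2 and 33.5 CPM at 24 h, again with no overlap of 24 h with either other time. It fell by 21.1% from 12 to 24 h (edgeR adjusted p = 1.41e-06) and fell by 15.8% from 0 to 24 h (edgeR adjusted p = 4.96e-05). The S phase and G2 cyclin CCNA2 fell from 12 to 24 h (log2 fold change -0.22 ± 0.06, edgeR adjusted p = 0.0149) and did not pass against 0 h (-0.10 ± 0.06). CDK1, the kinase itself, fell by 9.52% from 12 to 24 h (edgeR adjusted p = 0.0185) from 74.0, 69.2 and 76.3 CPM to 65.1, 67.0 and 66.5 CPM. PLK1 and AURKA, kinases of centrosome maturation and spindle assembly, had log2 fold changes of -0.30 ± 0.05 (edgeR adjusted p = 2.95e-05) and -0.28 ± 0.05 (0.000453).

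In this group TTK, the checkpoint kinase also called MPS1, fell most, from 13.88, 15.22 and 14.04 CPM at 12 h to 11.98, 10.004 and 11.14 CPM at 24 h (log2 fold change -0.38 ± 0.08, edgeR adjusted p = 0.000906). CDC25C, a phosphatase that activates CDK1, fell from 12 to 24 h with log2 fold change -0.27 ± 0.08 (edgeR adjusted p = 0.0382), and CDC25B, its relative, with -0.25 ± 0.05 (0.000463). NEK2, a centrosome kinase, was called in all 3 comparisons, at 0.15 ± 0.05, -0.20 ± 0.05 and -0.35 ± 0.05 in the order 12 over 0 h, 24 over 0 h, 24 over 12 h. CCNF, the substrate adaptor of a ubiquitin ligase, was called in none and had -0.07 ± 0.06 from 12 to 24 h.

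Calls near the threshold in this group rested on single libraries or settings. CDC25C lost its call of 24 h against 12 h without any 1 of the 6 libraries compared (edgeR adjusted p = 0.0679 to 0.140), and its call against 0 h without any 1 of 8 libraries, replicate 1 of 0 h being the other (0.0558 to 0.252). The former was also lost with the trends removed (edgeR adjusted p = 0.0669), and the latter with only the 6 libraries compared (0.0688) and in DESeq2 (DESeq2 adjusted p = 0.0552). CDK1 lost its call without replicate 1 of 12 h (edgeR adjusted p = 0.0906), replicate 3 of 12 h (0.137) or replicate 1 of 24 h (0.0801), and CCNA2 without replicate 3 of 12 h (0.0922), replicate 1 of 24 h (0.0892) or replicate 3 of 24 h (0.0928). NEK2 lost its rise without replicate 1 (0.229) or 2 (0.0722) of 0 h or any 1 library of 12 h (0.0632 to 0.115), with no scaling factor (0.0554), with no count filter (0.0526) and with the trends removed (0.127). Against 0 h, TTK lost its call at 24 h without replicate 3 of 0 h (edgeR adjusted p = 0.165), replicate 2 of 24 h (0.209) or replicate 3 of 24 h (0.0541), NEK2 without replicate 3 of 0 h (0.0753), and CDC25B without replicate 3 of 0 h (0.172), replicate 1 of 24 h (0.0603) or replicate 2 of 24 h (0.0965).

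**Figure D3:**
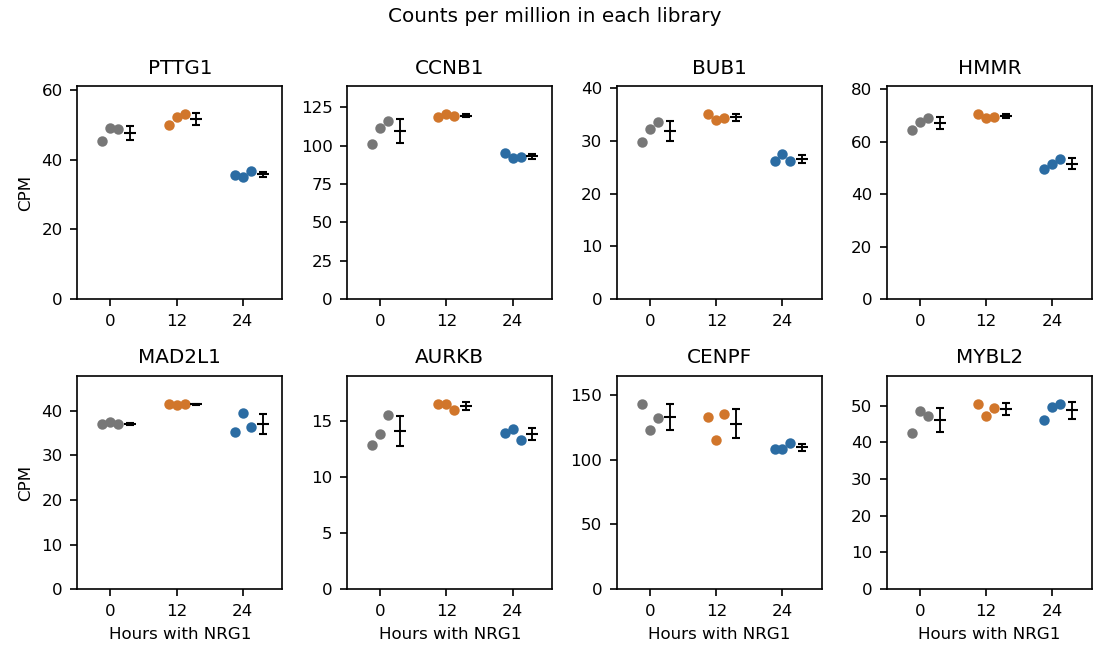
CPM of 8 genes (y axes, from 0) in each library at 0 h (grey), 12 h (orange) and 24 h (blue), with the mean and SD of 3 replicates in black. PTTG1, CCNB1, BUB1 and HMMR sit lowest at 24 h with no overlap, MAD2L1 and AURKB sit highest at 12 h, replicate 2 of CENPF at 12 h (115 CPM) lies below the other 12 h libraries, and the MYBL2 groups overlap.

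Of 12 genes of the kinetochore and the spindle checkpoint, 4 were higher at 12 h than at 0 h, 5 were lower at 24 h than at 0 h and 6 lower than at 12 h. Over all tested genes 10.6%, 9.48% and 3.05% were called so. In all 12 the 3 libraries of 24 h lay below the 3 of 12 h, where 12.3% of all tested genes did so. BUB1 (ENSG00000169679.15, chr2:110637528-110678063), the checkpoint kinase at the kinetochore, measured 29.8, 32.1 and 33.5 CPM at 0 h, 35.1, 33.9 and 34.3 CPM at 12 h and 26.1, 27.4 and 26.2 CPM at 24 h. The 24 h libraries did not overlap with either other time, and BUB1 fell by 22.8% from 12 to 24 h (log2 fold change -0.37 ± 0.05, edgeR adjusted p = 2.61e-06). MAD2L1, the checkpoint protein that binds CDC20, measured 37.0, 37.4 and 36.9 CPM at 0 h, 41.5, 41.3 and 41.6 CPM at 12 h and 35.3, 39.5 and 36.3 CPM at 24 h.

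MAD2L1 rose at 12 h (log2 fold change 0.16 ± 0.05, edgeR adjusted p = 0.00923) and its 24 h libraries overlapped with those of 0 h. Its fall from 12 h (-0.16 ± 0.05, edgeR adjusted p = 0.0247) lost the call without any 1 library of 12 h (0.0763 to 0.0829) or replicate 1 (0.149) or 3 (0.110) of 24 h. NDC80, the subunit of the outer kinetochore that holds microtubules, rose most of the 60 genes at 12 h, by 16.5% (0.22 ± 0.05, edgeR adjusted p = 0.00234), from 27.5, 26.4 and 29.0 CPM to 33.2, 30.01 and 33.4 CPM, and fell by 19.7% from 12 to 24 h (edgeR adjusted p = 0.000138). NUF2, its partner in the same complex, had 0.06 ± 0.06 at 12 h and fell at 24 h against both times. BUB1B, which encodes BUBR1 of the checkpoint complex, was called in all 3 comparisons, at 0.15 ± 0.05, -0.16 ± 0.05 and -0.31 ± 0.05. BUB3, its binding partner, rose at 12 h (0.11 ± 0.03, edgeR adjusted p = 0.0226) and was called in no other comparison.

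CENPE and CENPF, the large kinetochore motor and its farnesylated partner, both fell at 24 h against 0 h, by 10.9% and 17.4% (edgeR adjusted p = 0.0106 and 0.0182). CENPE was also called against 12 h (log2 fold change -0.28 ± 0.05, edgeR adjusted p = 0.000173). CENPF read 133, 115 and 136 CPM at 12 h and 108, 108 and 113 CPM at 24 h, and its log2 fold change of -0.22 ± 0.07 did not pass (edgeR adjusted p = 0.108). Against 0 h, CENPE lost the call without replicate 1 of 0 h (edgeR adjusted p = 0.0565) or replicate 2 of 24 h (0.164), and CENPF without replicate 3 of 0 h (0.0739) or any 1 library of 24 h (0.0572 to 0.0732) and with no scaling factor (0.0657). At 12 h, BUB1B lost its rise without replicate 1 of 0 h (0.106) or replicate 1 (0.0960) or 2 (0.0534) of 12 h and with the trends removed (0.0631). BUB3 lost its rise without replicate 1 of 0 h (edgeR adjusted p = 0.0835) or replicate 2 of 12 h (0.0700) and with no count filter (0.0570). BUB1B also lost its fall against 0 h without replicate 3 of 0 h (edgeR adjusted p = 0.112) or replicate 2 of 24 h (0.0916). CENPA, the histone of centromeric chromatin, CENPI, SPC25 and SGO1, the protector of centromeric cohesin, were called in no comparison, with values from 12 to 24 h between -0.24 and -0.16.

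The chromosomal passenger complex corrects wrong attachments of chromosomes to the spindle, and BIRC5 and AURKB of its 4 genes passed the test. BIRC5 (ENSG00000089685.15, chr17:78214186-78225636), which encodes survivin, measured 60.2, 65.8 and 66.3 CPM at 0 h, 67.5, 67.8 and 68.1 CPM at 12 h and 54.7, 53.9 and 51.5 CPM at 24 h. Its 24 h libraries lay below all others, and it fell by 21.3% from 12 to 24 h (log2 fold change -0.35 ± 0.04, edgeR adjusted p = 2.67e-07) and fell by 16.7% against 0 h (edgeR adjusted p = 5.98e-06). AURKB, the kinase of the complex, measured 12.9, 13.8 and 15.5 CPM at 0 h, 16.5, 16.5 and 15.9 CPM at 12 h and 13.9, 14.3 and 13.3 CPM at 24 h.

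AURKB rose at 12 h (0.21 ± 0.07, edgeR adjusted p = 0.0254) and fell from 12 to 24 h (-0.24 ± 0.07, edgeR adjusted p = 0.0330), while the 0 h and 24 h libraries overlapped. Its rise lost the call without replicate 1 (edgeR adjusted p = 0.160) or 2 (0.0682) of 0 h or replicate 1 (0.0739) or 2 (0.0759) of 12 h, and its fall without any 1 library of 12 h (0.0620 to 0.124) or replicate 1 (0.0704) or 3 (0.155) of 24 h. CDCA8, which encodes borealin, had -0.24 ± 0.08 from 12 to 24 h and missed the threshold (edgeR adjusted p = 0.0641). INCENP, the scaffold, had -0.07 ± 0.05 and did not pass.

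Of the 10 kinesin motors, 7 were lower at 24 h than at 12 h, 4 were lower than at 0 h and 1, the chromokinesin KIF22, was higher at 12 h than at 0 h. Among all tested genes 3.05%, 9.48% and 10.6% were called so, and 1 of 10 lies near the last of these shares. KIF20A (ENSG00000112984.12, chr5:138178719-138187723), a motor of cytokinesis also called MKLP2, measured 35.9, 38.3 and 39.5 CPM at 0 h, 41.5, 41.2 and 40.3 CPM at 12 h and 29.9, 32.3 and 30.9 CPM at 24 h. The 3 times did not overlap, and KIF20A fell by 24.2% from 12 to 24 h (log2 fold change -0.40 ± 0.05, edgeR adjusted p = 2.35e-07). The chromokinesin KIF4A fell alike (-0.40 ± 0.05, edgeR adjusted p = 1.48e-06), from 37.7, 37.0 and 38.2 CPM to 28.4, 29.6 and 27.7 CPM. KIF11, the motor that separates spindle poles, fell by 14.8% from 12 to 24 h (-0.23 ± 0.05, edgeR adjusted p = 0.00272) and fell by 10.16% against 0 h (edgeR adjusted p = 0.0227). The latter call was lost without replicate 1 (edgeR adjusted p = 0.0706) or 3 (0.0856) of 0 h or replicate 1 (0.0759) or 2 (0.0798) of 24 h.

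KIF2C, a depolymerase at centromeres, KIF14, KIF15 and KIF22 were called lower at 24 h than at 12 h with log2 fold changes of -0.25 to -0.23. Without 1 library, KIF2C lost this call in 5 cases (edgeR adjusted p = 0.0600 to 0.153, all but replicate 3 of 12 h), KIF15 in all 6 (0.0533 to 0.137) and KIF14 in 3, which were replicate 1 (0.0619) or 3 (0.0769) of 12 h and replicate 2 of 24 h (0.103). KIF14 also lost its call against 0 h without replicate 2 of 24 h (0.0786), and KIF22 its rise at 12 h without replicate 1 of 0 h (0.176) or replicate 2 of 12 h (0.0571). KIF23, the motor of the central spindle, had -0.18 ± 0.06 (edgeR adjusted p = 0.0879) and KIF18A had -0.18 ± 0.09, and neither passed. KIF20B had -0.09 ± 0.06 at 12 h against 0 h and -0.01 ± 0.06 from 12 to 24 h, neither of which passed.

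Among the spindle and microtubule-associated proteins none of 9 was higher at 12 h, while 6 were lower at 24 h than at 0 h and 4 lower than at 12 h. The same calls were made in 10.6%, 9.48% and 3.05% of all tested genes. HMMR (ENSG00000072571.20, chr5:163460203-163491941), the hyaluronan-mediated motility receptor that acts at spindle poles, measured 64.6, 67.6 and 69.0 CPM at 0 h, 70.7, 69.2 and 69.6 CPM at 12 h and 49.5, 51.7 and 53.6 CPM at 24 h. All 24 h libraries lay far below the rest, and HMMR fell by 26.1% from 12 to 24 h (log2 fold change -0.44 ± 0.04, edgeR adjusted p = 1.06e-09) and fell by 23.0% against 0 h (edgeR adjusted p = 2.73e-09). DLGAP5, a protein of kinetochore fibres also called HURP, measured 45.3, 45.2 and 45.2 CPM at 0 h, 46.0, 49.7 and 48.0 CPM at 12 h and 37.6, 35.4 and 36.2 CPM at 24 h, a fall of 24.1% from 12 h (edgeR adjusted p = 5.02e-08). TPX2, the activator of AURKA, fell by 14.05% from 12 to 24 h (edgeR adjusted p = 0.00168) and fell by 9.33% against 0 h (edgeR adjusted p = 0.0196).

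ASPM, which sits at spindle poles, GTSE1 and TROAP had log2 fold changes of -0.03, -0.08 and -0.04 at 12 h, none of which passed, and all 3 fell at 24 h against 0 h, by 13.9%, 16.1% and 19.5%. TROAP was also called against 12 h (edgeR adjusted p = 0.00376). ASPM lost its call without replicate 1 of 0 h (edgeR adjusted p = 0.137), its highest library at 24.2 CPM, or without replicate 1 of 24 h (0.170), its lowest at 17.1 CPM. TPX2 lost its call against 0 h without replicate 2 (0.119) or 3 (0.164) of 0 h or replicate 2 of 24 h (0.109). CKAP2 had -0.06 ± 0.04 from 12 to 24 h and did not pass.

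NUSAP1 and PRC1, a nucleolar and spindle protein and a bundler of the central spindle, had few reads. NUSAP1 had 10 to 22 counts in a library, or 0.207 to 0.426 CPM, and its value of 24 h against 12 h, the only one above 0 among the 60, was 0.48 ± 0.42 and did not pass (edgeR adjusted p = 0.597). Its 24 h libraries, at 0.384 to 0.426 CPM, lay above those of 0 h, at 0.207 to 0.343 CPM, and the log2 fold change of 0.50 ± 0.41 did not pass either (edgeR adjusted p = 0.453). PRC1 had 49 to 116 counts in a library and -0.12 ± 0.25. A transcript of another gene ID at the same locus shared a stretch with each at 99.9% identity in both cases, so reads of these 2 genes may not have been assigned to them in full.

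The 3 genes of cytokinesis all fell between 12 and 24 h. ECT2 (ENSG00000114346.14, chr3:172750682-172821474), which activates RHOA for the contractile ring, measured 61.7, 62.1 and 68.7 CPM at 0 h, 71.4, 69.2 and 73.3 CPM at 12 h and 58.5, 59.0 and 60.6 CPM at 24 h. The times did not overlap, although replicate 3 of 0 h came within 1 CPM of the 12 h libraries. ECT2 rose at 12 h by 11.1% (edgeR adjusted p = 0.00668) and fell by 16.7% to 24 h (edgeR adjusted p = 4.43e-05), and both calls remained without any 1 library. RACGAP1, its partner at the central spindle, fell by 14.9% (edgeR adjusted p = 0.000290), and ANLN, a scaffold of the ring, by 10.9% (edgeR adjusted p = 0.0410). ANLN lost its call without any 1 of the 6 libraries compared (edgeR adjusted p = 0.0557 to 0.156) and with no scaling factor (0.0581), and RACGAP1 its call against 0 h without replicate 3 of 0 h (0.102) or replicate 1 of 24 h (0.0801).

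The cyclosome, or anaphase-promoting complex, marks securin and cyclin B for destruction. The genes of its activator CDC20, of its ubiquitin-conjugating enzymes UBE2C and UBE2S and of securin fell from 12 to 24 h. PTTG1 (ENSG00000164611.13, chr5:160421855-160428739), which encodes securin, the inhibitor of separase, had the largest fall of the 60 genes. It measured 45.4, 49.0 and 48.7 CPM at 0 h, 49.8, 52.2 and 53.1 CPM at 12 h and 35.5, 35.1 and 36.7 CPM at 24 h. The 24 h libraries stood well apart from both other times, and PTTG1 fell by 30.8% from 12 to 24 h (log2 fold change -0.53 ± 0.04, edgeR adjusted p = 1.01e-10) and fell against 0 h (-0.41 ± 0.04, edgeR adjusted p = 2.88e-09). CDC20, an activator, measured 64.8, 73.1 and 75.2 CPM at 0 h, 70.2, 73.1 and 73.7 CPM at 12 h and 59.4, 61.7 and 55.2 CPM at 24 h. The 0 h and 12 h libraries of CDC20 overlapped and its 24 h libraries lay below both, with a fall of 18.7% from 12 h (edgeR adjusted p = 0.000115).

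UBE2C, which starts ubiquitin chains for the cyclosome, fell by 17.3% from 12 to 24 h (edgeR adjusted p = 0.000196) and fell by 18.3% against 0 h (edgeR adjusted p = 1.36e-05). UBE2S, which lengthens the chains, rose by 7.44% at 12 h (edgeR adjusted p = 0.0319) and fell by 8.54% from 12 to 24 h (edgeR adjusted p = 0.0190). Its rise lost the call without replicate 1 (edgeR adjusted p = 0.0879) or 3 (0.123) of 0 h or replicate 1 of 12 h (0.225) and with the trends removed (0.0638), and its fall without replicate 1 of 12 h (0.192) or any 1 library of 24 h (0.0541 to 0.0587). ESPL1, which encodes separase, had -0.17 ± 0.07 from 12 to 24 h and did not pass (edgeR adjusted p = 0.199). The core of the complex was measured apart from these genes. Of 17 genes for its subunits, its inhibitors and its other activator FZR1, 1 fell from 12 to 24 h, the subunit ANAPC15 (-0.30 ± 0.08, edgeR adjusted p = 0.0144), and the median was -0.01. FZR1 had 0.04 ± 0.04 and did not pass (edgeR adjusted p = 0.706). Among all tested genes 3.05% were called lower between these times.

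Of the transcription factors that switch these genes on, FOXM1 (ENSG00000111206.13, chr12:2857680-2877174) measured 62.3, 70.4 and 70.6 CPM at 0 h, 69.4, 69.9 and 68.1 CPM at 12 h and 62.2, 57.9 and 56.0 CPM at 24 h. It fell by 15.1% from 12 to 24 h (log2 fold change -0.24 ± 0.04, edgeR adjusted p = 0.000747) and fell by 13.4% against 0 h (edgeR adjusted p = 0.000685). MYBL2 measured 42.5, 48.6 and 47.2 CPM at 0 h, 50.6, 47.2 and 49.3 CPM at 12 h and 46.0, 49.6 and 50.4 CPM at 24 h. All 3 times of MYBL2 overlapped, and its value from 12 to 24 h was -0.01 ± 0.05 and did not pass (edgeR adjusted p = 0.952). The difference between the changes of FOXM1 and MYBL2 was not tested.

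Among the genes of chromatin and the nucleus, TOP2A, the topoisomerase that untangles sister chromatids, fell by 9.50% from 12 to 24 h (edgeR adjusted p = 0.0123) and fell by 9.03% against 0 h (edgeR adjusted p = 0.00547). LMNB1, a protein of the nuclear lamina, fell by 9.78% and 10.6% (edgeR adjusted p = 0.00614 and 0.000635). MKI67, which encodes the proliferation marker Ki-67, was called in no comparison. It measured 98.1, 97.6 and 98.9 CPM at 0 h, 100.3, 79.0 and 103 CPM at 12 h and 85.8, 90.1 and 91.9 CPM at 24 h, so replicate 2 of 12 h lay below all other libraries and the other 12 h libraries above all others. PIF1, a DNA helicase, fell at 24 h against 0 h (log2 fold change -0.26 ± 0.09, edgeR adjusted p = 0.0393). TOP2A lost its call from 12 to 24 h without replicate 1 (edgeR adjusted p = 0.0757) or 3 (0.0733) of 12 h or replicate 1 of 24 h (0.107), and against 0 h without replicate 3 of 0 h (0.0589) or replicate 1 of 24 h (0.0735). PIF1 lost its call without any 1 of 6 libraries (0.0503 to 0.188), which were all of 0 h, replicate 1 of 12 h and replicates 1 and 2 of 24 h. It was also lost with no count filter (edgeR adjusted p = 0.0580) and with only the 6 libraries compared (0.0564).

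**Figure D4:**
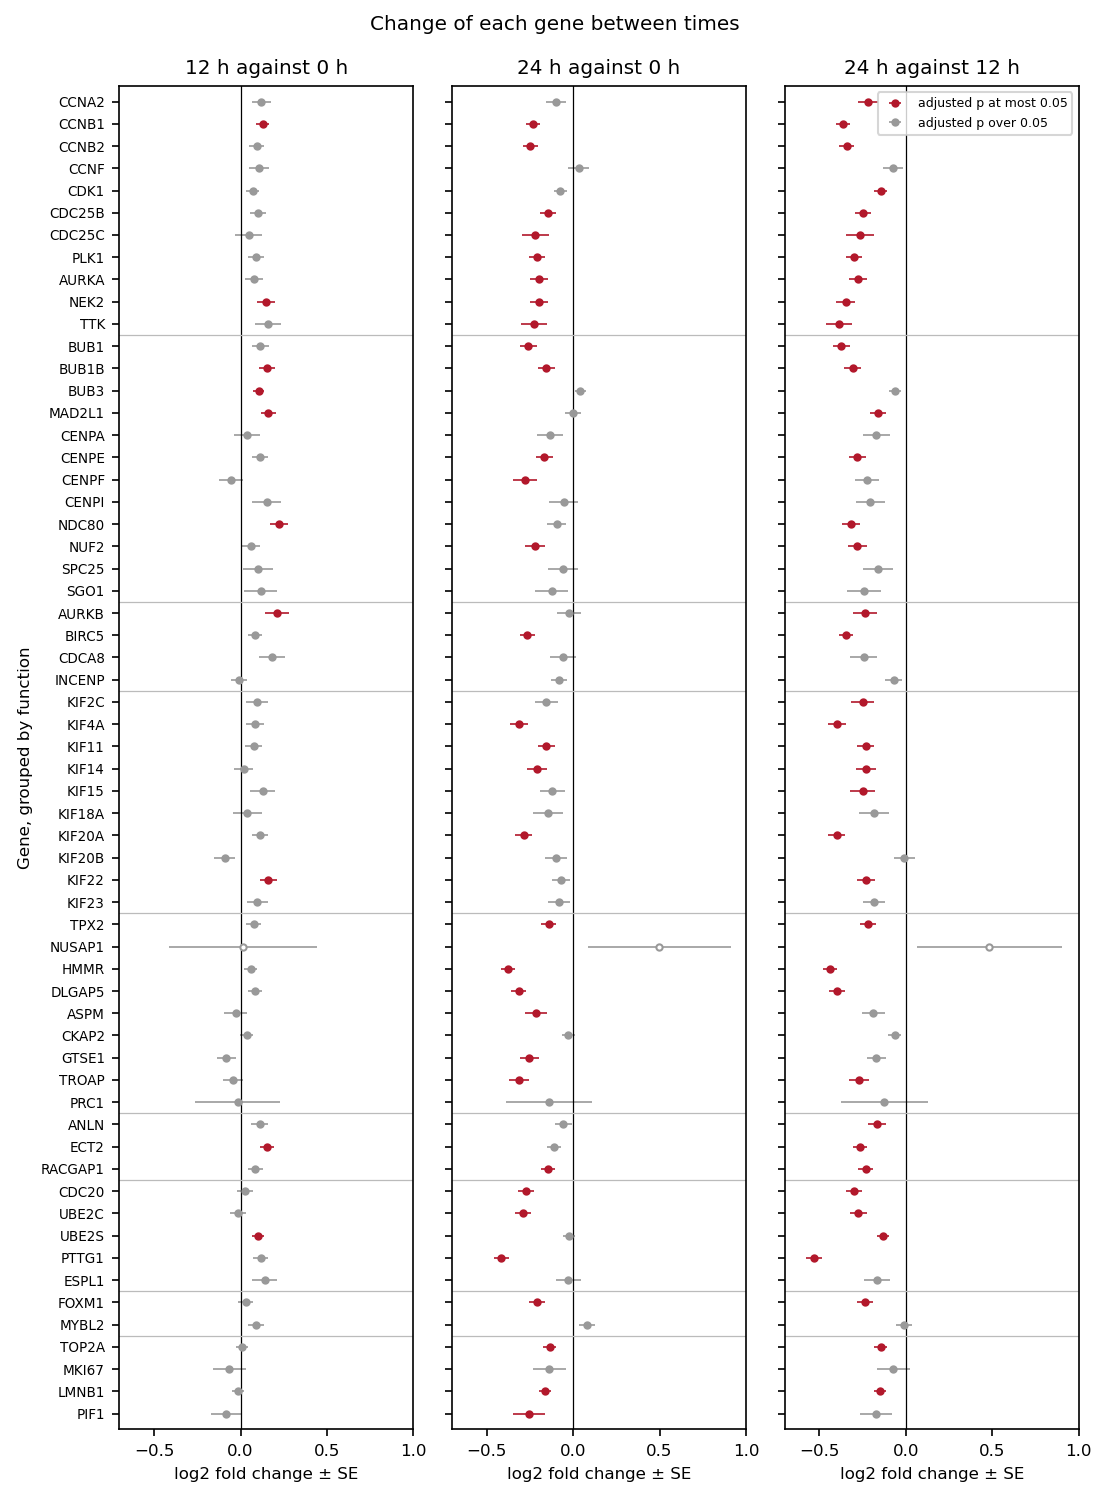
log2 fold change with its SE (x axes) of each of the 60 genes (y axis, grouped by function) in the 3 comparisons, red where edgeR's adjusted p was at most 0.05 and grey elsewhere, with NUSAP1, the gene with fewest reads, as an open symbol. In the right panel 59 of 60 values lie below 0, and with no scaling factor 57 do. Of all 19250 tested genes, 9558 lay below 0 in this comparison.

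The 60 genes thus followed a few courses, which were not counted over all tested genes and rest on comparisons that share libraries. Lower at 24 h than at both other times were 28 genes, among them PTTG1, HMMR, KIF20A and CCNB1. Lower than at 12 h but not called against 0 h were 11 genes, CCNA2, CDK1, MAD2L1, NDC80, AURKB, KIF2C, KIF15, KIF22, ANLN, ECT2 and UBE2S. Of these, MAD2L1, NDC80, AURKB, KIF22, ECT2 and UBE2S had been called higher at 12 h. Lower than at 0 h but not called against 12 h were 4, CENPF, ASPM, GTSE1 and PIF1. BUB3 was called only as a rise at 12 h. The remaining 16 were called in no comparison: CCNF, CENPA, CENPI, SPC25, SGO1, CDCA8, INCENP, KIF18A, KIF20B, KIF23, NUSAP1, CKAP2, PRC1, ESPL1, MYBL2 and MKI67.

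Of 103 other genes of G2 and mitosis, in 6 lists, 29 were lower and 1 was higher from 12 to 24 h. At 24 h against 0 h 13 were lower and 10 higher, and at 12 h against 0 h 16 were higher and 4 lower. Among all tested genes, 3.05% were called lower and 3.03% higher from 12 to 24 h. At 24 h against 0 h 9.48% were lower and 11.6% higher, and at 12 h against 0 h 10.6% were higher and 8.16% lower. The counts in the 6 lists are to be read beside the same shares. Factors of spindle assembly and cytokinesis had 9 of 18 lower from 12 to 24 h and a median of -0.22. CEP55, which recruits the machinery of abscission, fell by 0.35 on the log2 scale (edgeR adjusted p = 7.81e-05), and KPNA2, an importin that carries TPX2, rose at 12 h (0.31 ± 0.04, edgeR adjusted p = 1.49e-07) and fell from 12 to 24 h (-0.24 ± 0.04). Of the constitutive and outer kinetochore genes 10 of 31 were lower from 12 to 24 h, with CENPW, a subunit of the inner kinetochore, at -0.57 ± 0.07 (edgeR adjusted p = 1.05e-06). CENPN, also of the inner kinetochore, rose by 0.51 at 12 h and fell by 0.16 to 24 h, and stayed higher at 24 h than at 0 h (0.35 ± 0.05).

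Condensin and cohesin had 7 of 17 genes lower from 12 to 24 h, among them the condensin subunits NCAPH, NCAPD2, SMC2, SMC4, NCAPG2 and NCAPG, at -0.26 to -0.17. Mitotic entry control had 2 of 9 lower, the CDK partners CKS1B and CKS2, and 4 of 9 higher at 12 h, among them CDC25A, the phosphatase of the G1 to S transition. Of the 11 genes of DREAM and MuvB, 1 rose from 12 to 24 h, MYBL1 (0.38 ± 0.10, edgeR adjusted p = 0.0192), a relative of MYBL2, and E2F5, a repressor E2F of DREAM, was higher at 24 h than at 0 h (0.40 ± 0.06, edgeR adjusted p = 4.82e-06).

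Genes that act before G2 were measured for comparison. Of 35 genes of DNA replication and the G1 to S transition, 17 were higher at 12 h than at 0 h and 18 at 24 h. From 12 to 24 h, 1 gene, RRM1, fell. Among all tested genes 10.6% and 11.6% were called higher than at 0 h, and 3.05% were called lower from 12 to 24 h. The medians of the 35 genes were 0.17, 0.16 and -0.02 in the order 12 over 0 h, 24 over 0 h, 24 over 12 h. MCM6, a subunit of the replicative helicase, was higher by 0.46 ± 0.05 at 12 h and 0.40 ± 0.05 at 24 h, and E2F1 by 0.27 ± 0.05 and 0.32 ± 0.05. A difference between the lists was not tested, and the members of both were chosen with results of these data known.

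**Figure D5:**
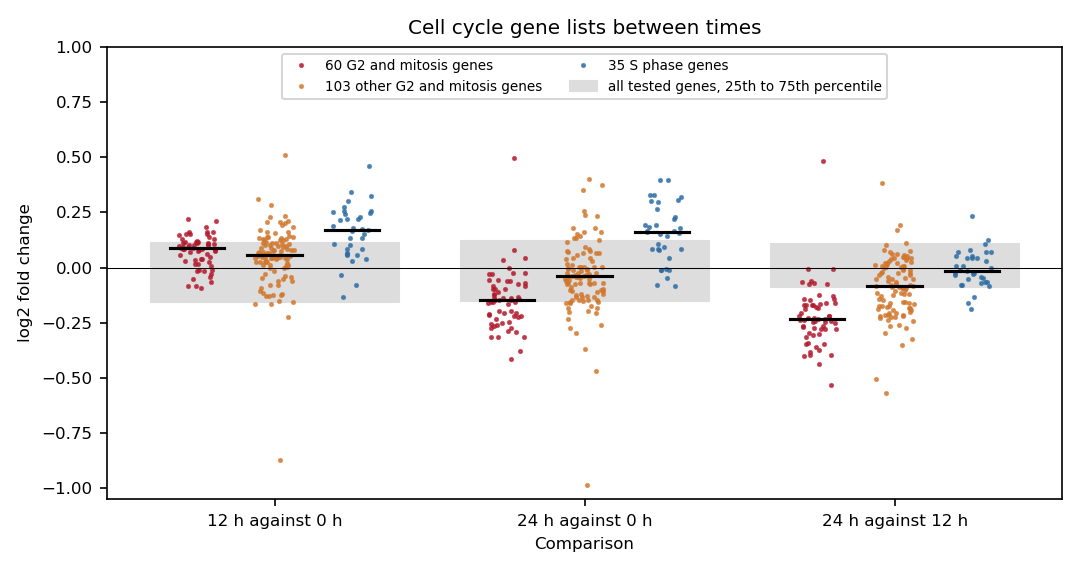
log2 fold change (y axis) of the 60 G2 and mitosis genes (red), 103 other genes of G2 and mitosis (orange) and 35 S phase genes (blue) in the 3 comparisons (x axis), 1 point a gene, with medians as black lines and the 25th to 75th percentile of all tested genes as a grey band. The red medians are 0.09, -0.15 and -0.23, and the blue medians are 0.17, 0.16 and -0.02.

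Reads of some of the 60 genes could not be separated with certainty from those of a neighbour, since the strand setting of the counting was not stated. In 13 genes an overlapping gene held over 10% of the gene's own counts, and the largest share in each was FAM53C for CDC25C (973%), OIP5 for NUSAP1 (928%), RPL28 for UBE2S (411%), SLC35F6 for CENPA (291%) and BRD8 for KIF20A (204%). In the other 8 the gene with the largest share was AC068831.18 for PRC1 (128%), PDZD11 for KIF4A (117%), TMEM42 for KIF15 (97.3%), EXOSC9 for CCNA2 (88.3%), KIAA0895 for ANLN (64.5%), RHNO1 for FOXM1 (49.2%), NOSTRIN for SPC25 (41.3%) and RGS5 for NUF2 (10.4%). With these 13 left out, 9 genes were higher at 12 h, 27 lower at 24 h against 0 h and 30 lower at 24 h against 12 h, of 47.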

How the data were processed

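RNA was measured in 9 libraries of LNCaP cells. The authors trimmed adapters with cutadapt, aligned read pairs with STAR to GRCh38.p13 and counted reads per gene with featureCounts. They deposited the counts as whole numbers, neither normalized nor pooled, in 1 column per library. The strand setting of the counting is not given in the sources used here. Reads carried no molecular identifiers, so depth (47016302 to 60985825 counts in a library) bounds the counting error alone.

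The sample titles gave groups and replicate numbers. The authors give 3 replicates for each time with NRG1, and all were kept. Their methods also state that 1 LNCaP library of 0 h failed quality control and was left out, without naming its treatment. Genes were filtered with filterByExpr (19250 kept) and libraries scaled by the trimmed mean of M values. All 9 libraries entered 1 robust quasi-likelihood fit of the counts, without covariates, in edgeR 4.0.16 (R 4.3.3). P-values were adjusted by Benjamini and Hochberg over all tested genes, and a gene was called at an adjusted p of at most 0.05. A fold change of at least 1.5, as the authors required with DESeq2, was counted apart. CPM are on scaled library sizes, and log2 CPM used a prior count of 2. The method was tested on simulated data.

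Members and lists were chosen with earlier results of these data known, and the lists were written from general knowledge. Values were to be given for a panel of 29 members, the member of each of 9 classes with the largest change from 12 to 24 h, and any past both thresholds. Other genes were named after their values were seen. Overlapping genes were read from the deposited table, and near-identical stretches (at least 95% over 150 bases) were sought with BLAST 2.17.0. Promoters and their letters came from RefSeq. Alternatives were DESeq2 1.42.0, other scalings, filters and thresholds, the replicate block, only the 6 libraries compared, no mitochondrially encoded genes, each library left out in turn and, chosen after seeing the data, removal of GC and length trends and of overlapping members.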

Additional observations from a re-analysis of the deposited data

Results flagged for a closer look

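The change after 0 h differed between 12 and 24 h in 39 of the 60 genes, tested as the difference itself, which is the comparison of 24 h with 12 h (edgeR adjusted p at most 0.05, 3.05% of all tested genes called lower). The log2 fold changes of 24 h against 12 h were, from the largest fall, PTTG1 -0.53, HMMR -0.44, KIF20A -0.40, KIF4A -0.40, DLGAP5 -0.40, TTK -0.38, BUB1 -0.37, CCNB1 -0.36, NEK2 -0.35, BIRC5 -0.35, CCNB2 -0.34, NDC80 -0.32 and BUB1B -0.31.

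A middle group held the log2 values CDC20 -0.30, PLK1 -0.30, NUF2 -0.28, CENPE -0.28, AURKA -0.28, UBE2C -0.27, TROAP -0.27, CDC25C -0.27, ECT2 -0.26, CDC25B -0.25, KIF2C -0.25, KIF15 -0.25, AURKB -0.24, FOXM1 -0.24 and RACGAP1 -0.23. The smallest of the 39 differences, again on the log2 scale, were KIF11 -0.23, KIF22 -0.23, KIF14 -0.23, CCNA2 -0.22, TPX2 -0.22, ANLN -0.17, MAD2L1 -0.16, LMNB1 -0.15, CDK1 -0.14, TOP2A -0.14 and UBE2S -0.13. Every one of these lay below 0.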

How the results depend on the processing

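Every direction of the counts given for the members was the same under all alternatives. The replicate numbers did not pair the samples (correlation of deviations -0.04 to 0.03 over 9 pairs). With the replicate block, 11 members were higher at 12 h, 33 lower at 24 h against 0 h and 41 lower at 24 h against 12 h, and DESeq2 called 10, 31 and 40. With trends on GC content and length removed, an alternative chosen after seeing the data, 8, 34 and 41 were called. Leaving out 1 library moved the members called to 3 to 13 higher at 12 h, 21 to 33 lower at 24 h against 0 h and 29 to 42 lower at 24 h against 12 h, and their medians to 0.06 to 0.11, -0.17 to -0.13 and -0.24 to -0.22. Of the calls, 3 of 10, 18 of 32 and 28 of 39 remained without any 1 library, in that order. No named call reversed. Settings other than a left-out library or a fold threshold ended 10 calls, given beside the genes. A threshold of 2-fold called none, as 1.5-fold did.

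Some values near 0 that were never called changed sign, and the cause was not tested. At 12 h against 0 h they were ASPM at 0.029, MKI67 at 0.0088, NUSAP1 at -0.012 and TOP2A at -0.0041 with the trends removed, and TOP2A at -0.0030 with no scaling factor. MAD2L1 at 24 h against 0 h was 0.0033 with the minimum of 10 counts and 0.0029 with only the 6 libraries compared, and MYBL2 from 12 to 24 h was 0.0033 with no scaling factor. Leaving out 1 library gave, at 12 h against 0 h, ASPM -0.077 to 0.040, CDC20 -0.033 to 0.072, CDC25C -0.035 to 0.11, CENPF -0.10 to 0.021, FOXM1 -0.025 to 0.063, LMNB1 -0.040 to 0.022, MKI67 -0.13 to 0.050, NUSAP1 -0.28 to 0.20, TOP2A -0.0073 to 0.035 and UBE2C -0.041 to 0.0077. At 24 h against 0 h it gave AURKB -0.083 to 0.056 and MAD2L1 -0.050 to 0.034, and from 12 to 24 h MYBL2 -0.035 to 0.029. NUSAP1 and PRC1 had the fewest reads, and the cause of this was not tested.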
